A study of Mus musculus with 6 samples.

Results

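The surfactant proteins and the lamellar body genes of the alveolar type 2 cell were compared between the lungs of 2 kinds of F1 mouse, using 10 genes: Sftpa1, Sftpb, Sftpc, Sftpd, Abca3, Lpcat1, Napsa, Slc34a2, Cxcl15 and Etv5. Every probe set that the array's annotation assigns to exactly 1 gene symbol was taken if that symbol was in this list, which gave 22 of the 45037 probe sets that were not controls, for 10 of 18193 named genes. Animals were adult females. In the first group (AKR_F1, 3 arrays) they came from an outcross of AKR/J with FVB/NJ and in the second (DBA_F1, 3 arrays) from an outcross of DBA/2J with FVB/NJ. The 3 parental strains are inbred, so every animal carried 1 set of FVB/NJ chromosomes, and what differed between the groups was the AKR/J or DBA/2J set. No animal received an experimental agent beyond the Avertin anaesthesia given before death, and the comparison asks how the genotypes differ at baseline. The labels do not tie the arrays to separate animals, so p-values measure the group difference against the spread between these samples, which may be technical.

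Pulmonary surfactant is a film of lipid and protein that lowers surface tension at the air-liquid boundary of the alveolus. Type 2 cells assemble its phospholipids and the small hydrophobic proteins SP-B and SP-C in lamellar bodies, which are lysosome-related storage organelles, and release them by exocytosis. The larger collectins SP-A and SP-D are secreted as well and bind microbes in the airspace. In whole lung, fewer type 2 cells and less RNA per type 2 cell cannot be told apart.

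Signals are log2 values for each probe set, so a difference of 1 is a doubling and all differences are AKR_F1 minus DBA_F1. The 10 genes were all measured above the low-signal limit by at least 1 probe set, and by their brightest probe sets they had mean signals from 9.88 (Etv5) to 14.31 (Sftpc), so the defining markers of type 2 cells were present on all arrays. The highest value on any array lay between 14.49 and 14.56. Lamp3, a further lamellar body marker, has no value here because no probe set was assigned to that symbol alone. The squamous keratin Krt13 was 3.48 and 3.30 on AKR_F1 replicates 1 and 2, 12.13 on AKR_F1 replicate 3 and 11.85 to 12.46 on the DBA_F1 arrays, the muscle actin gene Acta1 was 7.48 and 6.07 on the first pair of arrays, 13.12 on AKR_F1 replicate 3 and 12.43 to 12.99 in DBA_F1, and the adipocyte hormone gene Adipoq was 8.16 to 9.02 in AKR_F1 and 9.82 to 10.87 in DBA_F1. The libraries thus differ in transcripts of tissues other than alveolus, and results are given below with and without AKR_F1 replicate 3 where that matters. Without that array, every AKR_F1 array left is low in Krt13 and Acta1 and every DBA_F1 array is high. Genotype and these transcripts then cannot be told apart.

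All 10 genes had a higher mean in AKR_F1 than in DBA_F1, and 3 of them passed the test: Lpcat1, Napsa and Sftpb, by 33.2%, 26.9% and 25.1% on the linear scale. The median difference over the 10 genes was 0.18 log2, with a range from 0.02 (Sftpc) to 0.41 (Lpcat1), against a median of 0.015 over all 13202 genes tested. A gene was called at an adjusted p under 0.05 in a limma fit over all probe sets, with Benjamini-Hochberg adjustment. By that rule 2.48% of all genes were called, 1.42% as higher in AKR_F1 and 1.06% as higher in DBA_F1. The 3 AKR_F1 arrays all lay above the 3 DBA_F1 arrays in 5 of the 10 genes (Sftpa1, Sftpb, Sftpd, Lpcat1 and Napsa), as they did in 14.2% of all genes, and in the other 5 the groups overlapped. A higher mean in AKR_F1 was found in 55.1% of all genes.

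**Figure D1:**
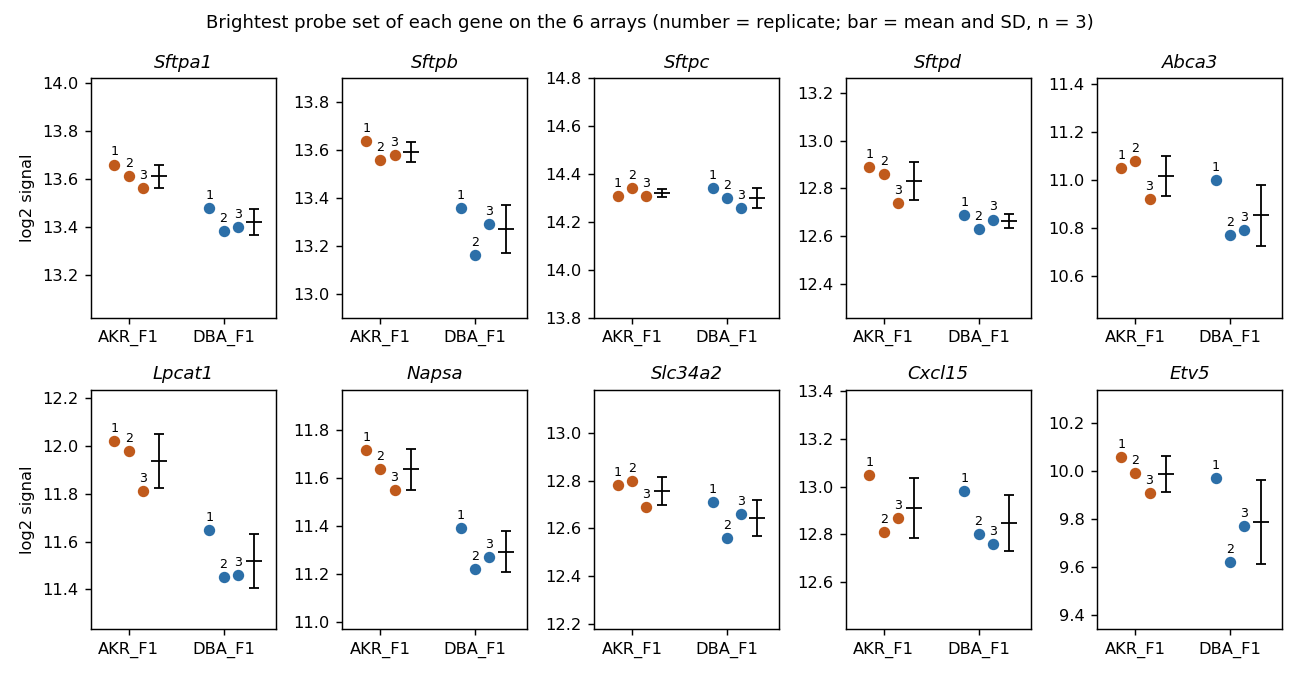
Log2 signal of the brightest probe set of each of the 10 genes on the 6 arrays (y axis, 1 log2 unit high in every panel), with the replicate number over each point and the mean and SD of 3 arrays beside it. The groups are fully separate for Sftpa1, Sftpb, Sftpd, Lpcat1 and Napsa, and for Sftpc all 6 points lie between 14.26 and 14.34.

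Among the hydrophobic surfactant proteins, Sftpb was higher in AKR_F1 and Sftpc showed no difference that could be resolved. Sftpb encodes SP-B, which is required to form lamellar bodies and to spread the lipid film. Its only probe set (1437028_at, chromosome 6) read 13.64, 13.56 and 13.58 in AKR_F1 and 13.36, 13.16 and 13.29 in DBA_F1, in the order of replicates 1, 2 and 3 as in all such values here. Every AKR_F1 array was above every DBA_F1 array, and DBA_F1 replicate 2 was the lowest. The difference was 0.32 ± 0.057 (SE, n = 3 per group, 95% interval 0.19 to 0.46, limma adjusted p = 0.0371). Leaving out a single array ended the call in 4 of 6 cases, with a difference between 0.27 and 0.34: the adjusted p became 0.151 for AKR_F1 replicate 1, 0.124 for AKR_F1 replicate 2, 0.0877 for DBA_F1 replicate 2 and 0.0683 for DBA_F1 replicate 3. Without AKR_F1 replicate 3, the AKR_F1 array with squamous and muscle signal, Sftpb was still called (0.33, adjusted p = 0.048). In that fit the groups also differ fully in squamous and muscle signal, so it cannot set genotype apart from those transcripts.

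Sftpc encodes the precursor of SP-C, a short lipopeptide found in type 2 cells alone. Its bright probe set (1418639_at, chromosome 14) read 14.31, 14.34 and 14.31 in AKR_F1 and 14.34, 14.30 and 14.26 in DBA_F1. The groups overlapped, and the difference was 0.02 ± 0.034 (SE, 95% interval -0.06 to 0.10, limma adjusted p = 0.818). This probe set ranked 3rd to 5th of all probe sets on every array and lay 0.18 log2 below the lowest of the array maxima, so little of the measuring range was left above it. The 9 tested probe sets with a mean of 14 or more had absolute differences of at most 0.06 and 0 of them were called. A second probe set of Sftpc (1438290_x_at, whose suffix marks possible cross-hybridisation) was at the other end of the scale, with 3.46, 3.48 and 3.48 in AKR_F1 and 3.84, 4.09 and 3.82 in DBA_F1. It fell under the low-signal limit of 4.72 and was not tested, so its values say nothing of Sftpc.

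**Figure D2:**
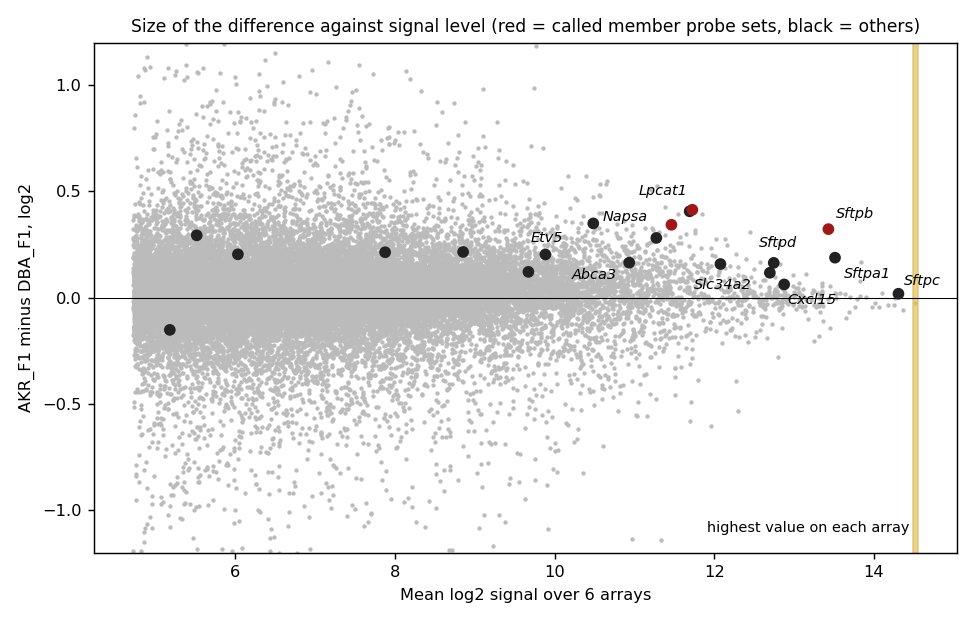
Difference between the groups (y axis, AKR_F1 minus DBA_F1, log2) against mean log2 signal over the 6 arrays (x axis) for all 27022 tested probe sets in grey and the 20 tested probe sets of the 10 genes in black or, where called, red; 230 grey points lie outside the plotted range of -1.2 to 1.2. The cloud narrows toward the array maximum (band at the right), where Sftpc lies, while Sftpb stands at the upper edge of the cloud at its level.

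Differences between the groups were smaller among brighter probe sets, and 6 of the 10 genes had a brightest probe set above 12. Whether a narrowed scale made them smaller was not tested. The median absolute difference was 0.093 for the 1604 tested probe sets with means from 10 to 12, 0.045 for the 217 from 12 to 13, 0.035 for the 64 from 13 to 14 and 0.026 for the 9 above. Sftpb and Sftpa1 lay in the bin from 13 to 14. The only probe set called in that bin was that of Sftpb, which also had its largest difference, 0.32.

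The collectins differed by less. Sftpa1 encodes SP-A, which organises surfactant lipid into tubular myelin and opsonises bacteria, and Sftpd encodes SP-D, which binds microbial sugars and limits the surfactant pool. The brighter Sftpa1 probe set (1422334_a_at, chromosome 14) read 13.66, 13.61 and 13.56 in AKR_F1 and 13.48, 13.38 and 13.40 in DBA_F1. These groups did not overlap, and the difference was 0.19 ± 0.043 (SE, 95% interval 0.09 to 0.29, limma adjusted p = 0.081). A second Sftpa1 probe set (1429626_at), designed from another source sequence and far from the array maximum, read 11.51, 11.35 and 11.39 in AKR_F1 and 11.11, 11.04 and 11.25 in DBA_F1. Here too the groups were separate, with a difference of 0.28 ± 0.067 (SE, adjusted p = 0.0879), so neither Sftpa1 probe set was called. With array weights the brighter one was (0.21, adjusted p = 0.0408).

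Sftpd (1420378_at, chromosome 14) read 12.89, 12.86 and 12.74 in AKR_F1 and 12.69, 12.63 and 12.67 in DBA_F1. AKR_F1 replicate 3 was the closest to the DBA_F1 arrays but above all of them, and the difference was 0.16 ± 0.048 (SE, limma adjusted p = 0.143). Without AKR_F1 replicate 3 it was 0.21 ± 0.043 and called (adjusted p = 0.0495), in a fit where the groups also differ fully in squamous and muscle signal. Of the other collectins, 3 of 5 genes were tested (Colec11, Colec12 and Mbl1), 0 were called and 0 had an unadjusted p under 0.05. Colec12 had a difference of 0.12 and Colec11, at a signal near the low limit, -0.13.

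The promoters of 3 genes are shown because these genes were separate between the groups and the homeodomain factor NKX2-1 is known to act on surfactant genes. The sequences come from the RefSeq annotation of the GRCm38.p6 assembly, which represents the C57BL/6J strain and not the parents used here. Each is the 250 bases before the annotated start, 5′ to 3′ on the gene's strand, and capitals mark matches to CTCAAG, a core of NKX2-1 sites, or to its reverse complement CTTGAG.
Sftpb, chr6:72304360-72304609, plus strand: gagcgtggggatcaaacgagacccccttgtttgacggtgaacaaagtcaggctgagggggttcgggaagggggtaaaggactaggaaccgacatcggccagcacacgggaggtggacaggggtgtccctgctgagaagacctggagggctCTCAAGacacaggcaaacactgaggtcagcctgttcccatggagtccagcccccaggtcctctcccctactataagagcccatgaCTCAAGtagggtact
Sftpa1, chr14:41131538-41131787, plus strand: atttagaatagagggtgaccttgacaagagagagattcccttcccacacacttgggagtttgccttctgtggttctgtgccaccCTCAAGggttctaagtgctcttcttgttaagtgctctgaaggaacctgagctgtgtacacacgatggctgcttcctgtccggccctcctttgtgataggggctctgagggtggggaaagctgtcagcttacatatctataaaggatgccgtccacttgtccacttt
Lpcat1, chr13:73466981-73467230, plus strand: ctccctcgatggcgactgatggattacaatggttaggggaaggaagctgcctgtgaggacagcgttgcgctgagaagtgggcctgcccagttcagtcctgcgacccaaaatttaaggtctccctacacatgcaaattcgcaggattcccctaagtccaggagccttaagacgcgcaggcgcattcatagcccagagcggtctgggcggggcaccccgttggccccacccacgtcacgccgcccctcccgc
In Sftpb the motif occurs at 100 to 95 and at 15 to 10 bases before the start, and in Sftpa1 it occurs at 166 to 161 bases before it. No match was found in this window of Lpcat1. Of 32851 promoters of this length, 13.3% hold at least 1 match and 0.998% hold 2 or more. Promoters were found for 7 of the 10 genes, and Sftpb and Sftpa1 were the 2 of the 7 with a match. The Lpcat1 window has 16 CpG dinucleotides, against 7 in Sftpb, 3 in Sftpa1 and a median of 6 over all promoters. A FOXA motif, TGTTTAC, was also sought on both strands; 3.17% of all promoters hold it, and of the 7 genes Etv5 did, at 183 to 177 bases before a start. The C/EBP motif TTGCNNAA is held by 9.56% of all promoters and, among the 7, by Slc34a2, at 48 to 41 bases before its start. A match is only a string of letters, and nothing here measured factor binding. Nkx2-1 itself was 6.36, 6.38 and 6.08 in AKR_F1 and 6.47, 6.22 and 6.17 in DBA_F1 (difference -0.01 ± 0.12 SE, limma adjusted p = 0.968).

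Of the enzymes that make surfactant, Lpcat1 and Napsa were higher in AKR_F1. Lpcat1 encodes a lysophosphatidylcholine acyltransferase that remodels phosphatidylcholine toward the dipalmitoyl form that dominates surfactant. Its brightest probe set (1424460_s_at, chromosome 13) read 12.02, 11.98 and 11.81 in AKR_F1 and 11.65, 11.45 and 11.46 in DBA_F1. The groups were separate, with the gap set by AKR_F1 replicate 3 and DBA_F1 replicate 1, and the difference was 0.41 ± 0.078 (SE, 95% interval 0.23 to 0.60, limma adjusted p = 0.0452).

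The 5 probe sets of Lpcat1 did not give 1 answer. A second one (1424459_at) read 11.99, 11.95 and 11.75 against 11.69, 11.36 and 11.42, a difference of 0.41 ± 0.10 (SE, limma adjusted p = 0.0969), and 1451359_at differed by 0.35 ± 0.096 (adjusted p = 0.123). These 3 share a source sequence in the platform annotation, and the groups were separate in all 3. The remaining pair, designed from another source sequence, had low signal: 1420293_at read 5.29, 5.03 and 4.98 against 5.23, 5.14 and 5.39 (difference -0.15 ± 0.11 SE, adjusted p = 0.531), and 1420294_at had a mean of 3.06 and was below the low-signal limit. Taking the mean of the tested probe sets, Lpcat1 differed by 0.25 and was not called (adjusted p = 0.184). It also lost the call when AKR_F1 replicate 1 was left out (adjusted p = 0.17), or AKR_F1 replicate 2 (0.17), DBA_F1 replicate 2 (0.172) or DBA_F1 replicate 3 (0.101), with differences of 0.37 to 0.39.

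Napsa encodes napsin A, an aspartic protease of lamellar bodies that cleaves the SP-B precursor. Its bright probe set (1423590_at, chromosome 7) read 11.72, 11.64 and 11.55 in AKR_F1 and 11.39, 11.22 and 11.27 in DBA_F1. Every AKR_F1 array was above every DBA_F1 array, and the difference was 0.34 ± 0.064 (SE, 95% interval 0.19 to 0.49, limma adjusted p = 0.0437). The dimmer probe set (1430744_at) read 6.14, 6.26 and 6.0 against 5.90, 6.12 and 5.77, with overlapping groups and a difference of 0.20 ± 0.11 (SE, adjusted p = 0.386). The call of the bright probe set was lost without AKR_F1 replicate 1 (adjusted p = 0.159), AKR_F1 replicate 2 (0.159), DBA_F1 replicate 2 (0.163) or DBA_F1 replicate 3 (0.0943), and the difference then lay between 0.30 and 0.34.

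The transporters did not pass. Abca3 encodes the lipid pump of the lamellar body membrane, and its brightest probe set (1451731_at, chromosome 17) read 11.05, 11.08 and 10.92 in AKR_F1 and 11.00, 10.77 and 10.79 in DBA_F1. DBA_F1 replicate 1 lay within the AKR_F1 range, and the difference was 0.17 ± 0.078 (SE, 95% interval -0.02 to 0.35, limma adjusted p = 0.315). The other 2 probe sets of Abca3 differed by 0.12 (9.67 mean signal) and 0.29 (5.51 mean signal), also with overlapping groups. Slc34a2 encodes the sodium-phosphate cotransporter NaPi-2b, which takes phosphate back from the alveolar lining fluid. It read 12.78, 12.80 and 12.69 in AKR_F1 and 12.71, 12.56 and 12.66 in DBA_F1 (1416854_at, chromosome 5), a difference of 0.12 ± 0.053 (SE, 95% interval -0.01 to 0.24, adjusted p = 0.295).

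Cxcl15 encodes lungkine, an epithelial chemokine for neutrophils. Its brighter probe set (1421404_at, chromosome 5) read 13.05, 12.81 and 12.87 in AKR_F1 and 12.98, 12.80 and 12.76 in DBA_F1, with overlapping groups and a difference of 0.06 ± 0.082 (SE, 95% interval -0.13 to 0.26, limma adjusted p = 0.737). On both Cxcl15 probe sets replicate 1 was the highest array of its own group. The second probe set (1456428_at) read 12.32, 12.10 and 12.05 against 12.21, 11.91 and 11.88, a difference of 0.16 ± 0.11 (SE, adjusted p = 0.48). Without AKR_F1 replicate 1 the difference of the brighter one was -0.01, so its sign rests on that array.

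Etv5 encodes an ETS transcription factor that acts downstream of fibroblast growth factor signalling and maintains the type 2 cell. Its brightest probe set (1428142_at, chromosome 16) read 10.06, 9.99 and 9.91 in AKR_F1 and 9.97, 9.62 and 9.77 in DBA_F1, a difference of 0.20 ± 0.091 (SE, 95% interval -0.01 to 0.42, limma adjusted p = 0.293). Its 3 probe sets gave nearly equal differences, from 0.20 to 0.22, over mean signals of 7.88 to 9.88. None of them was called, and in 1 of the 3 (1450082_s_at) the groups were separate, though the closest arrays, AKR_F1 replicate 3 and DBA_F1 replicate 1, both rounded to 8.91.

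**Figure D3:**
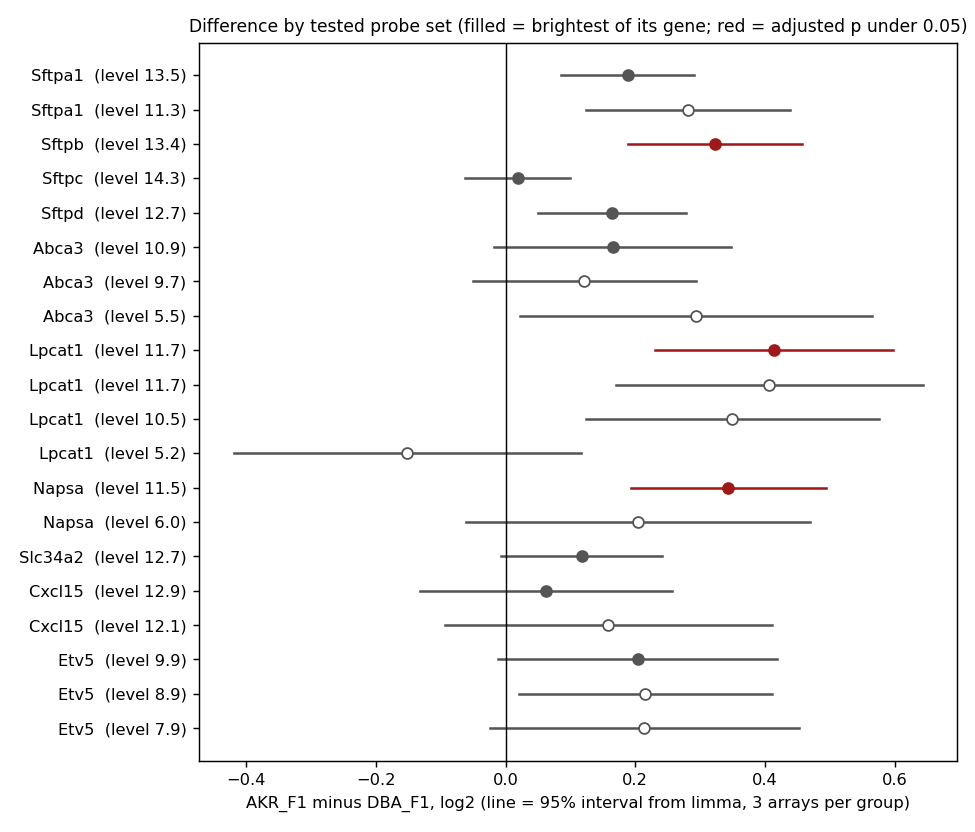
Difference between the groups (x axis, AKR_F1 minus DBA_F1, log2) with its 95% interval from limma for each of the 20 tested probe sets, labelled with the gene and the mean log2 signal; filled points are the brightest probe set of a gene and red marks an adjusted p under 0.05. Of the 20, 19 lie to the right of 0 and 3 are red, and the exception on the left is the Lpcat1 probe set at a level of 5.2.

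Counted by probe set, 3 of the 20 tested were called, against 2.62% of all tested probe sets, of which those called upward in AKR_F1 made 1.57% and those called upward in DBA_F1 1.05%. In 9 of the 20 the AKR_F1 arrays were all above the DBA_F1 arrays, against 14.6% of all. Probe sets of a gene share their RNA and partly their source sequence, so they are not independent.

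The arrays stood in a similar order for most of the 10 genes. Each gene was set against its own mean over the 6 arrays and the deviations were averaged, which gave 0.16, 0.11 and 0.034 in AKR_F1 and -0.0031, -0.17 and -0.13 in DBA_F1. AKR_F1 replicate 1 was the highest array for 7 of the 10 genes, and DBA_F1 replicate 2 was the lowest for 8 and DBA_F1 replicate 3 for the other 2. AKR_F1 replicate 3 and DBA_F1 replicate 1 lay next to each other, and AKR_F1 replicate 3 was above all DBA_F1 arrays for 5 of the 10 genes. Taken alone against the DBA_F1 mean, AKR_F1 replicate 3 was higher by 0.31 for Sftpb, 0.29 for Lpcat1, 0.25 for Napsa and 0.14 for Sftpa1, but by 0.064 for Abca3 and 0.050 for Slc34a2, as values without a test.

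Markers of other lung cell types and of other tissues also differed between these arrays. The mean signal of 10 alveolar type 1 markers was 11.78, 11.77 and 11.59 in AKR_F1 and 11.58, 11.47 and 11.55 in DBA_F1, and 6 endothelial markers gave 10.69, 10.69 and 10.53 against 10.44, 10.34 and 10.48. In both lists DBA_F1 replicate 2 was the lowest array. By mean, 8 type 1 markers were higher in AKR_F1 and 2 in DBA_F1. The latter were Pdpn (-0.11, with all DBA_F1 arrays above all AKR_F1 arrays) and Cav1 (-0.03). Median differences were 0.19 for the type 1 markers (0 of 10 called) and 0.22 for the endothelial markers (0 of 6 called), beside 0.18 for the 10 surfactant and lamellar body genes. Whether the last differs from the other two was not tested. All 6 club cell markers had the opposite sign (median -0.08), and 1 of them, Scgb3a1, was called as higher in DBA_F1.

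The 9 squamous epithelium markers had a mean of 4.81, 4.76 and 8.80 on the AKR_F1 arrays and 8.53, 9.05 and 8.35 on the DBA_F1 arrays, and DBA_F1 replicate 2 was the highest. The 9 skeletal muscle markers had 5.37, 4.87 and 9.16 against 8.58, 9.08 and 8.60, and all 7 of them that were tested had a lower mean in AKR_F1 (median -2.86, 0 called). The 8 adipocyte markers had 7.47, 6.59 and 6.48 against 8.78, 9.37 and 8.28, again highest on DBA_F1 replicate 2. For each of these 8 markers the lowest DBA_F1 array exceeded the highest AKR_F1 array. The part of these transcripts in the differences of the surfactant genes was not tested beyond the following fits. The thyroid, another NKX2-1 tissue near the lung, left little signal: Tg was at 4.50 to 5.04 and the mean of 4 thyroid markers at 4.41 to 4.56 on every array. With the squamous mean as a covariate 0 of the 10 genes were called, with a median difference of 0.099. The differences were 0.30 for Sftpb (SE 0.080, limma adjusted p = 0.201), 0.29 for Lpcat1 (SE 0.085, 0.244) and 0.25 for Napsa (SE 0.076, 0.251). For Sftpb the main fit gave 0.32 with an SE of 0.057. In the squamous fit 261 probe sets of the whole array were called, against 707 in the main fit. The adipocyte mean does not overlap between the groups. With it as a covariate 0 of the 10 were called as well and the median was 0.24. The differences then were 0.27 for Sftpb (SE 0.15, adjusted p = 0.834), 0.53 for Lpcat1 (SE 0.20, 0.825) and 0.43 for Napsa (SE 0.16, 0.825), and only 8 probe sets of the whole array were called. Without AKR_F1 replicate 3, the median was 0.21 and 4 of the 10 were called, Sftpd beside the other 3. The squamous and muscle means then do not overlap between the groups either, so this fit cannot separate those transcripts from genotype.

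**Figure D4:**
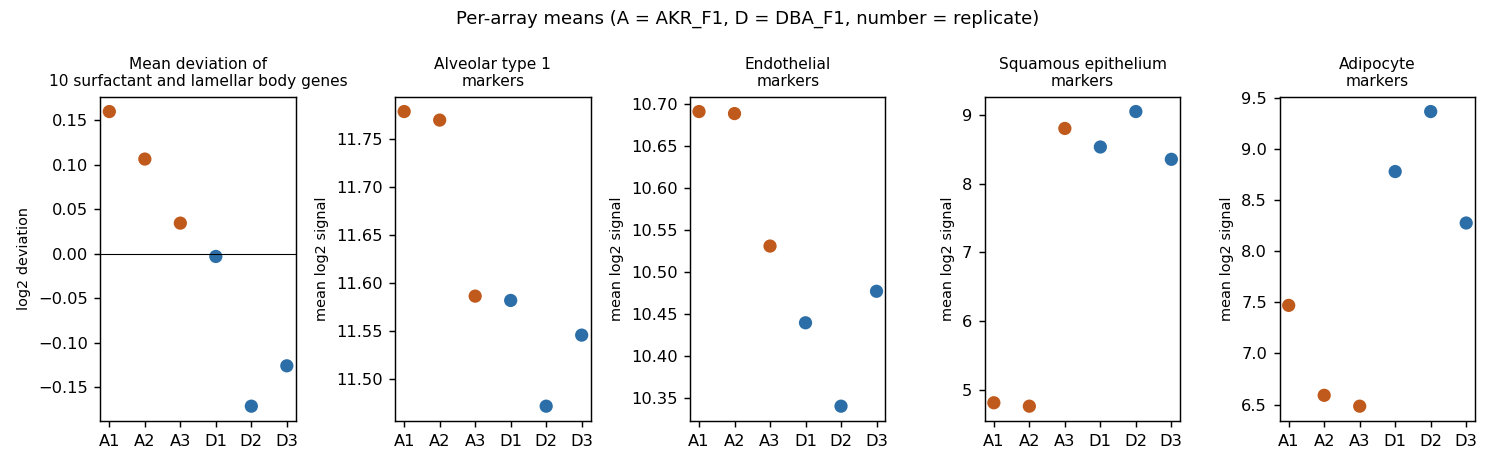
Per-array values for AKR_F1 (A1 to A3) and DBA_F1 (D1 to D3): the mean log2 deviation of the 10 surfactant and lamellar body genes, and the mean log2 signal of marker lists for alveolar type 1 cells, endothelium, squamous epithelium and adipocytes (each y axis has its own range and does not start at 0). The first panel falls from 0.16 on A1 to -0.17 on D2, the squamous markers lie under 5 on A1 and A2 alone, and the adipocyte markers are higher on all D arrays.

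Further genes of the surfactant system were taken from 7 lists that hold 152 genes beside the 10, of which 140 were tested. In all, 4 of the 140 were called, all higher in AKR_F1, against 2.48% of all genes in either direction, and 33 of the 140 (23.6%) had an unadjusted p under 0.05, against 19.1% of all genes.

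Phospholipid synthesis genes did not pass. Of 30 tested, 12 had a higher mean in AKR_F1 and 18 in DBA_F1, 0 were called and 4 had an unadjusted p under 0.05, and the median difference was -0.02. The phosphatidate phosphatase gene Lpin3 had the smallest p, with 5.92, 5.89 and 6.0 in AKR_F1 and 6.21, 6.35 and 6.33 in DBA_F1 (difference -0.36 ± 0.073 SE, limma adjusted p = 0.0571). The acyltransferase gene Agpat2, which adipocytes also use, followed with 8.67, 8.52 and 8.31 against 9.32, 9.65 and 8.64 (-0.70 ± 0.24, adjusted p = 0.195). Pcyt1a, the rate-limiting enzyme of phosphatidylcholine synthesis, differed by -0.04 ± 0.068 (adjusted p = 0.808).

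Genes for lamellar body formation and secretion had 0 of 29 called, with a median of 0.02. The adhesion receptor gene Adgrf5, which restrains surfactant release and is also found in endothelium, read 12.37, 12.30 and 12.16 in AKR_F1 and 11.96, 11.97 and 12.07 in DBA_F1, with separate groups (0.27 ± 0.063 SE, limma adjusted p = 0.078). Anxa7, an annexin of membrane fusion, differed by 0.16 ± 0.050 (adjusted p = 0.169). Hps1 and Ap3b1, whose human counterparts are mutated in Hermansky-Pudlak syndrome, a disorder of lysosome-related organelles, differed by 0.12 and -0.0040. Among 17 genes for surfactant protein processing and turnover, 0 were called and the median was 0.03. The chaperone gene Hspa5 (0.26 ± 0.069, adjusted p = 0.117) and Sel1l, a part of the degradation machinery of the endoplasmic reticulum (0.19 ± 0.054, adjusted p = 0.131), had the smallest p. Ctsh, a cathepsin that also trims the SP-B precursor, had the opposite sign to Napsa, with 11.58, 11.59 and 11.54 in AKR_F1 and 11.66, 11.72 and 11.86 in DBA_F1 (-0.17 ± 0.056, adjusted p = 0.173).

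Of 25 tested regulators of type 2 cells, 2 were called, both higher in AKR_F1, and the median was 0.07. Tead1, a DNA-binding partner of YAP, read 9.74, 9.75 and 9.75 in AKR_F1 and 9.42, 9.43 and 9.41 in DBA_F1 (0.33 ± 0.040 SE, limma adjusted p = 0.00995), while its other probe set, at a signal of about 5, differed by 0.05. The call of Tead1 was lost without AKR_F1 replicate 1 (adjusted p = 0.0636) or AKR_F1 replicate 2 (0.0594). Stat3, a cytokine-activated factor, was higher by its brightest probe set (0.23 ± 0.042, adjusted p = 0.0377), but its 3 other probe sets differed by -0.31, -0.06 and -0.02, and leaving out any of the 6 arrays ended the call (highest adjusted p 0.148, without AKR_F1 replicate 1). Foxa2, Foxa1 and Cebpa, which also act on surfactant genes, differed by 0.23, 0.09 and -0.05 and were not called.

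Of 24 other type 2 cell markers tested, 2 were called, both higher in AKR_F1, and the median was 0.02. By mean, 13 were higher in AKR_F1 and 11 in DBA_F1. Acoxl, an acyl-CoA oxidase-like gene, had the largest positive difference in the 7 lists: it read 8.91, 8.75 and 8.76 in AKR_F1 and 8.08, 7.80 and 7.61 in DBA_F1, with separate groups (0.97 ± 0.12 SE, limma adjusted p = 0.0102). Egfl6, a secreted matrix protein with EGF repeats, read 7.87, 7.70 and 7.78 against 7.38, 7.13 and 7.24 (0.53 ± 0.083, adjusted p = 0.0245). Acoxl lost the call without AKR_F1 replicate 1 (adjusted p = 0.0547), AKR_F1 replicate 2 (0.0542) or DBA_F1 replicate 2 (0.0554). Egfl6 lost it without AKR_F1 replicate 1 (0.106), AKR_F1 replicate 2 (0.0724), DBA_F1 replicate 2 (0.0897) or DBA_F1 replicate 3 (0.0561). On the other side Chil1, a chitinase-like protein, read 9.14, 8.85 and 9.14 against 9.60, 9.34 and 9.23, with separate groups (-0.35 ± 0.12, adjusted p = 0.189). The fatty acid-binding protein gene Fabp5 differed by -0.39 ± 0.17 with overlapping groups (adjusted p = 0.292). The lysozyme genes Lyz1 and Lyz2, like Sftpc close to the array maximum, differed by 0.02 and -0.02, and the tight junction gene Cldn18 by 0.03.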

How the data were processed

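Total lung RNA from 6 samples was hybridised to Affymetrix 3' arrays with biotin label, per the labels. The deposited table gives a log2 signal for every probe set on each array. MAS5 and RMA are both listed, without versions, per the submitters' processing notes; which of them made the table is not given in the sources used here. The scale was read from the values, whose medians per array were 5.46 to 5.49 with no centring by gene. Detection calls were not used. Precision is limited by the 3 arrays per group.

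The 64 control probe sets and the lowest 40% by mean over all arrays (mean log2 up to 4.72) were left out, leaving 27022. Of the 45037 probe sets, 34945 had 1 symbol, 932 several and 9160 none; 34741 of the first were matched by gene ID to RefSeq (GRCm38.p6). A gene is represented by its brightest tested probe set. Groups were compared with limma 3.58.1 in R 4.3.3 (lmFit, eBayes with trend, group as the only term, two-sided, Benjamini-Hochberg over all tested probe sets). The fit was tested on simulated data in which each probe set varied independently. Signal shared by many probe sets of an array, such as that of the squamous markers, was not simulated.

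The genes, lists, tests and alternatives were chosen with earlier results of these data known, so no p is adjusted over a list. Named are the 10 genes, up to 4 called genes of each list or else the 2 with the smallest p; other list genes were chosen after their values were seen. Alternatives: normalization, filter, eBayes settings, array weights, replicate block, single arrays left out, marker covariates and other probe set summaries.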

Additional observations from a re-analysis of the deposited data

How the results depend on the processing

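The 3 calls (Sftpb, Lpcat1 and Napsa) were the same genes under 7 of 18 alternatives: quantile normalization, median centring, no filter, a 60% filter, robust eBayes, the replicate block and the fit without DBA_F1 replicate 1. The count was 0 without a trend in eBayes and with either covariate (squamous or adipocyte mean), 1 with the mean of probe sets, and 0 to 4 with 1 array left out. Of 180 values of single genes, 152 kept direction and side of the threshold, 24 lost the call, 2 gained it and 2 changed sign. Only the 3 called genes could lose a call: Sftpb was called in 11 of 18 alternatives, Lpcat1 in 9 and Napsa in 10. Most values that stayed the same belong to genes that were not called in the main analysis. With 1 array left out Sftpc ranged from -0.0002 (without DBA_F1 replicate 3) to 0.036 and Cxcl15 from -0.0099 (without AKR_F1 replicate 1) to 0.129. Called probe sets numbered 707 in the main analysis, 1198 with array weights, 261 with the squamous and 8 with the adipocyte covariate, and 198 to 1171 with 1 array left out. Alternatives for the pathway lists were chosen after seeing the data. Their 4 calls became 7 with robust eBayes, 12 with array weights, 0 with either covariate and 0 to 6 with 1 array left out. Stat3 reversed to -0.31 by its most variable probe set and -0.038 by the mean of its probe sets. The cause of these changes was not tested. Whether replicate numbers pair the samples was not tested. Deviations of same-numbered arrays correlated at 0.31, -0.23 and -0.05, and those of differently numbered arrays at -0.28 to 0.31. With the replicate block 3 of the 10 genes, 4 pathway genes and 539 probe sets were called; Stat3 was not among the 4 (adjusted p = 0.086). Of the 10 genes Sftpc lay nearest the array maximum, and whether that narrowed its difference was not tested.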

Other observations

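Surfactant is cleared in part by alveolar macrophages, which need GM-CSF signalling to digest it. Of 18 tested genes of clearance and its receptors, 13 had a higher mean in AKR_F1, 9 had an unadjusted p under 0.05 (19.1% of all genes did) and 0 were called by limma, with a median difference of 0.09. Sirpa, an inhibitory receptor that binds SP-A and SP-D, had the smallest p (0.33 ± 0.065 SE, n = 3 per group, limma adjusted p = 0.0503); it read 9.03, 8.97 and 8.95 in AKR_F1 and 8.73, 8.53 and 8.69 in DBA_F1. Lipoprotein lipase (Lpl), which adipocytes also make, had the opposite sign (-0.46 ± 0.090, adjusted p = 0.0512), beside adipocyte markers that were higher on all DBA_F1 arrays. The GM-CSF gene Csf2, which type 2 cells express, had separate groups (6.21, 5.79 and 5.90 against 5.63, 5.41 and 5.64, adjusted p = 0.157), as did its receptor subunit Csf2ra (8.51, 8.32 and 8.52 against 8.24, 8.02 and 8.10, adjusted p = 0.0969). Csf2 was dim, beside array medians of 5.46 to 5.49. The receptor genes Csf2rb (0.14) and Csf2rb2 (0.08) had overlapping groups. In the list, 7 genes had all AKR_F1 arrays above all DBA_F1 arrays, against 1875 of all 13202 genes. The reverse held for 3, Lpl, Pparg (-0.33) and Lrp1 (-0.20), against 1322 of all genes. Of 7 alveolar macrophage markers tested, 1 was called, Siglecf (0.83 ± 0.12, adjusted p = 0.0182), and the median was 0.02. By mean, 4 of these markers were higher in AKR_F1 and 3 in DBA_F1. The latter were Fabp1 (-0.28), Chil3 (-0.19) and Krt79 (-0.08). For Fabp1 and Chil3 all DBA_F1 arrays lay above all AKR_F1 arrays.

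Among genes of fatty acid synthesis, which serve surfactant in type 2 cells and storage in fat, the array with the highest value was not the same for all. These genes were chosen after their values were seen. Fasn read 11.05, 10.84 and 10.74 in AKR_F1 and 11.34, 12.05 and 10.91 in DBA_F1, and Elovl6 read 6.75, 6.66 and 6.68 against 7.40, 8.61 and 7.06. The peak of both was DBA_F1 replicate 2, where the adipocyte mean was 9.37 and the mean deviation of the 10 surfactant and lamellar body genes was the lowest. Acaca (9.58) and Acly (10.99) were highest on that array as well. Scd1 and Elovl1 were instead highest on DBA_F1 replicate 1 (12.5 and 11.49) and Elovl5 on AKR_F1 replicate 1 (11.52). The part of adipose transcripts in these values was not tested.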
